A study of Mus musculus with 19 samples.

Results

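The 10 genes described here either mark endothelial cells, the cells that line blood vessels, or act in angiogenesis, the growth of new vessels from existing ones. They are the junction proteins Pecam1 and Cdh5, the coagulation protein Vwf, the receptors Kdr, Flt1, Tek and Tie1, the growth factors Vegfa and Vegfb, and the oxygen-regulated transcription factor Hif1a. They were taken by symbol, as a named set, from the 24237 genes of the deposited expression table that could be used, and all 10 were found. The study asked how dietary Mg2+ alters the response of mice to a high-fat diet. RNA was sequenced from epididymal white adipose tissue (eWAT), the fat pad beside the epididymis, with 1 library per mouse. Male C57Bl6/J mice, aged 9 to 10 weeks at the start, were fed 1 of 4 diets for 17 weeks. The groups were NormMg-LFD (n = 4, replicates 2 to 5), LowMg-LFD (n = 5), NormMg-HFD (n = 5) and LowMg-HFD (n = 5). The NormMg diets held 0.21% (wt/wt) MgO and the LowMg diets 0.03%, while the share of energy from fat was 10% in the LFD and 60% in the HFD.

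Adipose tissue is densely supplied with capillaries, through which adipocytes take up fatty acids and release them. VEGF-A, made by adipocytes among other cells, binds the receptor KDR (VEGFR2), the main signalling receptor for endothelial growth, and FLT1 (VEGFR1), which binds VEGF-A tightly and signals weakly. VEGF-B binds FLT1 but not KDR. TEK (TIE2) is the receptor of the angiopoietins and TIE1 is its partner without a ligand of comparable strength, while HIF-1α, the protein encoded by Hif1a, is kept low by oxygen-dependent degradation and induces VEGFA transcription when oxygen falls. HIF-1α is controlled mostly as a protein, and RNA was measured here.

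The 4 genes that passed the test between the Mg2+ levels on the HFD were Vegfa, Vegfb, Kdr and Hif1a, and the sequence just before each start site is printed to show which letters lie there. Each line holds the 250 bases before the start that RefSeq gives on GRCm38.p6, written 5′ to 3′ on the strand of the gene. Capitals mark the core of the hypoxia response element, ACGTG or GCGTG, the letters that HIF dimers bind, searched on both strands, so that a copy on the other strand reads CACGT or CACGC. The windows are chr17:46032378-46032627 on the minus strand for Vegfa, chr19:6987652-6987901 on the minus strand for Vegfb, chr5:75978456-75978705 on the minus strand for Kdr and chr12:73907617-73907866 on the plus strand for Hif1a.
Vegfa: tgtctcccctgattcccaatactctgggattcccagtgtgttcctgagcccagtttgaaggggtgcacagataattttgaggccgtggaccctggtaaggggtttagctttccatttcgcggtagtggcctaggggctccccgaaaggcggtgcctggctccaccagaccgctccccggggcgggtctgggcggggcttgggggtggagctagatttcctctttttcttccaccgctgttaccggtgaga
Vegfb: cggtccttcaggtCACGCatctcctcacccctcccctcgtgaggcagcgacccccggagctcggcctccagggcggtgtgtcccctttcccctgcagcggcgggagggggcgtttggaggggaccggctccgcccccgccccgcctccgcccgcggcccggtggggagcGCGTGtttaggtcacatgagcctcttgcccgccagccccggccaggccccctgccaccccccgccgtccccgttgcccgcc
Kdr: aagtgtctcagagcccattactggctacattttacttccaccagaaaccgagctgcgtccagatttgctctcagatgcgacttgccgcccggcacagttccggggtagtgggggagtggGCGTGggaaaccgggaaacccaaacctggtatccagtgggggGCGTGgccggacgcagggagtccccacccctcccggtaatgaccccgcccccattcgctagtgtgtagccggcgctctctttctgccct
Hif1a: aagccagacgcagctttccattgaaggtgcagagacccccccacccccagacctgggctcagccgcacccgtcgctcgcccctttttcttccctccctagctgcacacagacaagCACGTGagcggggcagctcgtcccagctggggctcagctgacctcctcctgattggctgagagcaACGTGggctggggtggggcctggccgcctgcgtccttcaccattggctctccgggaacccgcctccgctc
The Vegfa window shown held no copy of the core, the Vegfb and Kdr windows held 2 each, and the Hif1a window held 3, of which 2 overlap as a palindrome read on both strands. Of all 32851 windows of this length in the RefSeq table, 38.6% held at least 1 copy. The Vegfb window was the richest in G and C of the windows shown (76.4%), against 66.4% for Hif1a, 61.6% for Kdr and 59.2% for Vegfa. The RefSeq start of Hif1a lies inside the gene as GENCODE places it. RefSeq gives a further start for Vegfa inside the gene, and its window, which is not shown, held 2 copies. For the other receptors the RefSeq table held windows for Flt1, with 1 copy of the core, and for Tek and Tie1, with none. The letters are a description of these windows and say nothing about binding of the factor in eWAT. Copies farther from a start were not searched, so a window without a copy does not show that the gene lacks one.

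Depth was even, with 12986441 to 13027028 reads per mouse, of which 86.12% to 90.41% were mapped. Values are FPKM, fragments scaled for transcript length and library size, which carry no number of reads per gene, so the depth behind a single value is not known. Differences between groups are given as log2(FPKM + 1), with the SE and the adjusted p from limma over the 8336 genes whose FPKM passed 8 in a diet group, and an adjusted p under 0.05 was taken as the threshold. The fat pad was checked by its markers: all 8 adipocyte markers were detected in every group, and their summed level ranged from 4988.26 to 17375.3 FPKM. A library stood apart. The summed level of 10 exocrine pancreas genes was 1586.84 FPKM in NormMg-LFD replicate 3 and between 12.35 and 52.38 FPKM in the other mice. The main results that rest on the NormMg-LFD group are therefore also given without this mouse. The methods of the study report that a LowMg-HFD library was set aside for pancreatic tissue, but the labels do not name it, and LowMg-HFD replicates held 20.61 to 44.6 FPKM of these genes. All 19 mice were kept.

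All 10 genes exceeded 8 FPKM in all 19 mice. FPKM is scaled per length, so the levels of the genes can be set side by side. Vegfa stood highest, with a median of 113.01 FPKM over the 19 mice, followed by Vegfb (75.96), Cdh5 (73.89) and Pecam1 (71.07). Kdr (29.64), Tie1 (25.7) and Hif1a (25.45) formed the middle, and Flt1 (18.66), Vwf (16.07) and Tek (14.7) the lowest levels. Neighbours in this order overlapped in their ranges over the mice, except that the lowest Pecam1 level, 56.66 FPKM, exceeded the highest Kdr level, 37.38 FPKM. The spread was unequal. The CV over the 19 mice was 38.4% for Vegfa, 27.3% for Vegfb and 26.7% for Hif1a, against 11.2% for Pecam1 and 11.3% for Cdh5.

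**Figure D1:**
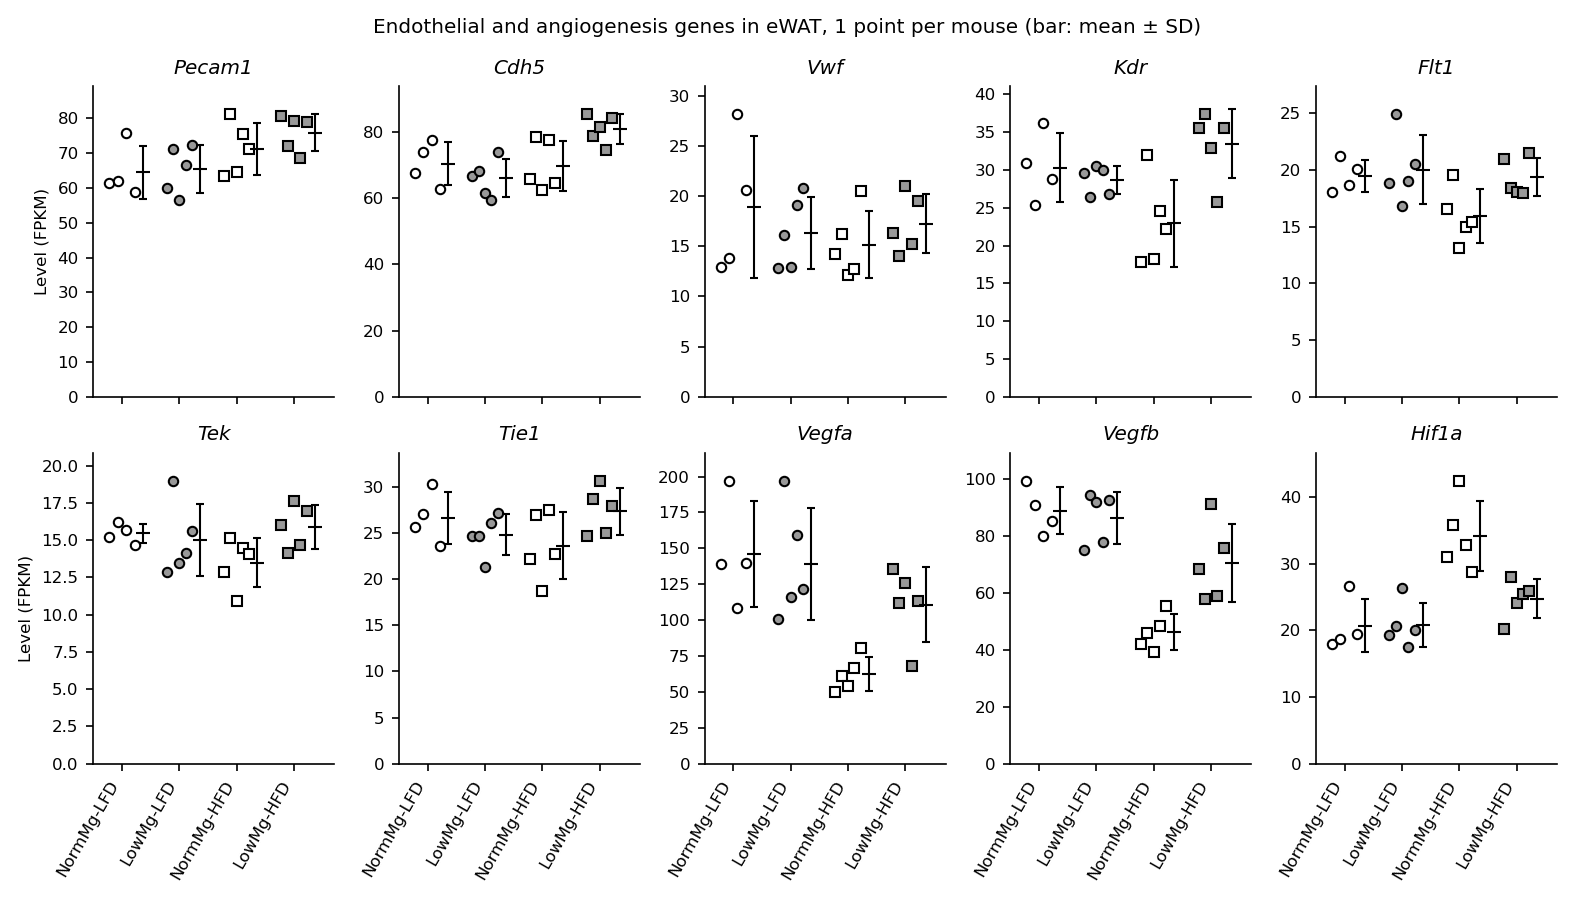
Level of each of the 10 genes in FPKM (vertical axis, from 0) in each mouse of the 4 diet groups (horizontal axis), with white circles for NormMg-LFD, grey circles for LowMg-LFD, white squares for NormMg-HFD and grey squares for LowMg-HFD, and the mean ± SD beside the points. The 5 NormMg-HFD mice are lowest for Vegfb, at 39.1 to 55.54 FPKM, and highest for Hif1a, at 28.74 to 42.4 FPKM, while the groups overlap for Pecam1, Vwf and Tie1.

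Both VEGF genes were higher and Hif1a was lower in LowMg-HFD mice than in NormMg-HFD mice, and the receptor Kdr was higher as well. On average Vegfa stood 1.77 times, Vegfb 1.52 times and Kdr 1.46 times as high in LowMg-HFD mice, and Hif1a at 0.724 times the NormMg-HFD level. Of the 10 genes, 3 rose and 1 fell, while 5.58% of the 8336 genes tested rose and 12.9% fell. Over all genes 465 of the 1542 calls were rises, which became 649 of 1498 after median centring and 786 of 1664 after quantile normalization. Without NormMg-HFD replicate 3 the calls over all genes numbered 921, and the 10 genes then gave 3. The median difference of the 10 genes was 0.22 on the log2 scale, against -0.04 for all genes tested, and 9 of 10 were above 0. In eWAT taken whole, fewer cells of a type and less RNA per cell cannot be told apart.

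Vegfa (ENSMUSG00000023951.17, chr17:46016993-46032369, minus strand), the principal vascular growth factor, measured 50.16, 60.74, 54.42, 66.42 and 80.77 FPKM in the NormMg-HFD mice. In the LowMg-HFD mice it measured 135.37, 112.0, 125.79, 67.76 and 113.01 FPKM. Replicate 4 of the LowMg-HFD group lay inside the NormMg-HFD range, and the other LowMg-HFD mice lay above it. Vegfa rose by a log2 difference of 0.80 ± 0.20 (SE, adjusted p = 0.0103 by limma). Without LowMg-HFD replicate 4 the difference was 0.96 (adjusted p = 0.00454 by limma).

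Vegfb (ENSMUSG00000024962.13, chr19:6982473-6987651, minus strand), the ligand of FLT1, measured 41.93, 46.01, 39.1, 48.38 and 55.54 FPKM in the NormMg-HFD mice and 68.41, 57.78, 91.1, 58.77 and 75.96 FPKM in the LowMg-HFD mice. The groups did not overlap. The log2 difference was 0.59 ± 0.12 (SE, adjusted p = 0.00387 by limma), with a 95% interval of 0.33 to 0.84. Vegfb and Hif1a were the 2 of the 10 genes whose HFD groups did not overlap, against 12.8% of all genes tested.

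Kdr (ENSMUSG00000062960.10, chr5:75932827-75978458, minus strand), which encodes VEGFR2, measured 17.89, 32.0, 18.24, 24.53 and 22.2 FPKM in the NormMg-HFD mice. It measured 35.61, 37.38, 32.95, 25.8 and 35.56 FPKM in the LowMg-HFD mice. The groups overlapped through NormMg-HFD replicate 2, at 32.0 FPKM, and LowMg-HFD replicate 4, at 25.8 FPKM. Kdr rose by 0.54 ± 0.14 on the log2 scale (SE, adjusted p = 0.0103 by limma).

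Hif1a (ENSMUSG00000021109.13, chr12:73901375-73947530, plus strand) went the other way, at 31.04, 35.83, 42.4, 32.78 and 28.74 FPKM in the NormMg-HFD mice and 20.19, 28.05, 24.1, 25.45 and 25.86 FPKM in the LowMg-HFD mice. Every LowMg-HFD mouse lay below every NormMg-HFD mouse. Hif1a fell by 0.45 on the log2 scale (SE 0.13, adjusted p = 0.0218 by limma). Its adjusted p was 0.0748 without NormMg-HFD replicate 3, 0.0557 without LowMg-HFD replicate 1 and 0.0529 with no filter on low values, while the direction stayed.

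The other receptors and the endothelial markers did not pass the threshold between the Mg2+ levels on the HFD. Flt1 (ENSMUSG00000029648.13, chr5:147561604-147726011, minus strand) ranged from 13.09 to 19.54 FPKM (median 15.41) in the NormMg-HFD mice and from 17.96 to 21.51 FPKM (median 18.4) in the LowMg-HFD mice. Its log2 difference was 0.28 ± 0.11 (SE, adjusted p = 0.0842 by limma). The angiopoietin receptor Tek (ENSMUSG00000006386.15, chr4:94739289-94874976, plus strand) and its partner Tie1 (ENSMUSG00000033191.14, chr4:118471191-118490061, minus strand) differed by 0.22 (adjusted p = 0.154 by limma) and 0.21 (adjusted p = 0.168). Cdh5 (ENSMUSG00000031871.9, chr8:104101625-104144511, plus strand), the cadherin of endothelial junctions, differed by 0.22 (adjusted p = 0.0856 by limma). Pecam1 (ENSMUSG00000020717.19, chr11:106654217-106750628, minus strand), an adhesion molecule of the same junctions that platelets and leukocytes also carry, differed by 0.10 (adjusted p = 0.514), with a 95% interval from -0.10 to 0.29. Vwf (ENSMUSG00000001930.17, chr6:125546774-125686679, plus strand), which tethers platelets to the vessel wall, differed by 0.18 (adjusted p = 0.553), with the widest interval of the 10 genes after Vegfa, from -0.23 to 0.59. Under median centring Cdh5 (0.27, adjusted p = 0.0403) and Flt1 (0.33, adjusted p = 0.0497) passed the threshold, and both also passed under quantile normalization (adjusted p = 0.028 and 0.047). Flt1 also passed without NormMg-HFD replicate 2 (0.35, adjusted p = 0.0327).

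**Figure D2:**
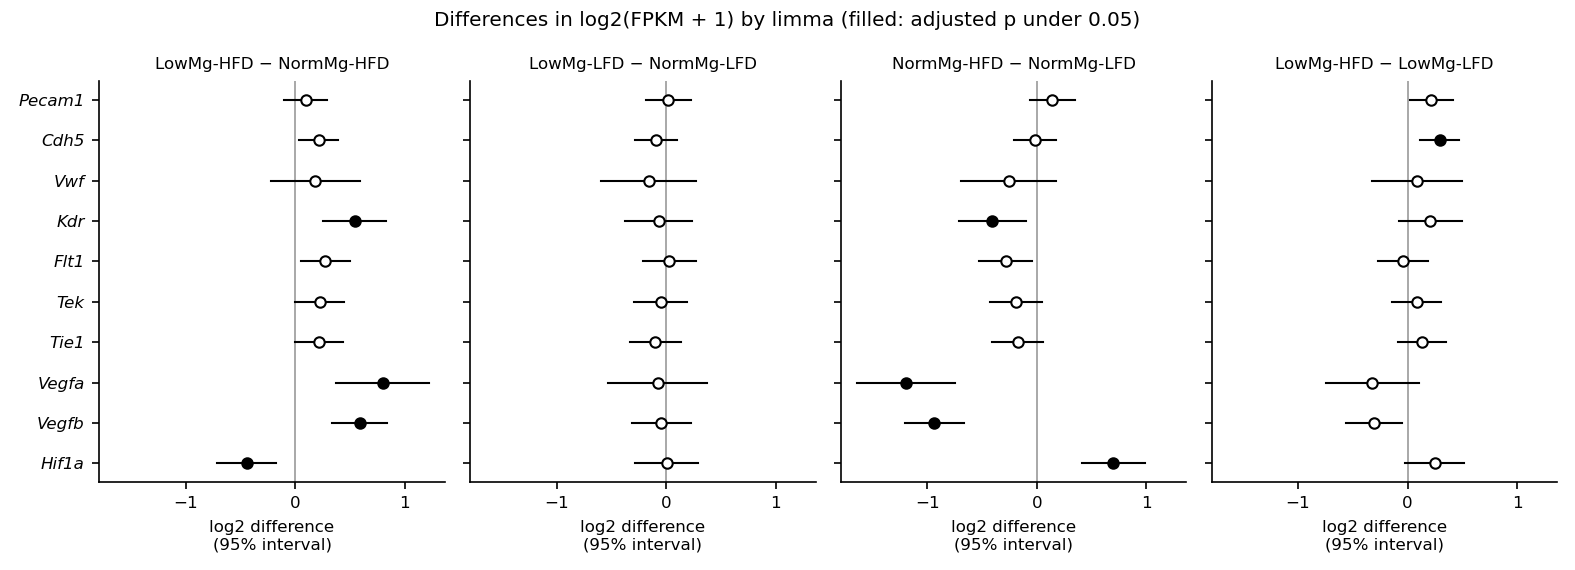
Difference in log2(FPKM + 1) of each gene (horizontal axis) with its 95% interval by limma, for the 4 pairs of diet groups named above the panels. Filled points passed an adjusted p of 0.05: Vegfa, Vegfb and Kdr to the right and Hif1a to the left between the Mg2+ levels on the HFD, none on the LFD, the opposite sides for the same genes between fat levels on normal Mg2+, and Cdh5 alone between fat levels on low Mg2+.

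On the LFD, Mg2+ was accompanied by no difference past the threshold. The 10 genes differed by -0.16 to 0.03 on the log2 scale, with adjusted p from 0.873 to 0.993 by limma, and none had an unadjusted p under 0.05. For all genes tested limma called 0 (0%), while 547 had an unadjusted p under 0.05. The LFD groups overlapped for all 10 genes, and 1.79% of all genes tested had LFD groups that did not overlap. Vegfa measured 138.76, 196.87, 108.49 and 139.64 FPKM in the NormMg-LFD mice and 100.98, 196.6, 116.38, 159.57 and 121.95 FPKM in the LowMg-LFD mice. Both groups held a mouse near 197 FPKM and spread widely below it, and the 95% interval of the Vegfa difference ran from -0.53 to 0.37. For Vegfb the interval ran from -0.31 to 0.22, for Kdr from -0.37 to 0.24 and for Hif1a from -0.28 to 0.29. Without NormMg-LFD replicate 3, the library with pancreatic transcripts, the Vegfa difference was 0.076 in place of -0.078 and the Hif1a difference -0.033 in place of 0.0068, and again no gene of the 10 was called.

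With fat on normal Mg2+ both VEGF genes and Kdr were lower, and Hif1a was higher, in NormMg-HFD than in NormMg-LFD mice. Vegfa stood at 0.428 times and Vegfb at 0.519 times the NormMg-LFD level, Kdr at 0.758 times and Hif1a at 1.65 times. Of the 10 genes 1 rose and 3 fell, against 24.6% and 12.8% of all genes tested. Over all genes 2048 of the 3114 calls were rises, which became 1580 of 3152 after median centring and 1499 of 3195 after quantile normalization. This comparison shares the NormMg-HFD mice with the one between Mg2+ levels on the HFD, so their values are given side by side and the opposite signs are not 2 separate results.

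Vegfa fell by 1.20 on the log2 scale (SE 0.21, adjusted p = 0.000223 by limma), and its lowest NormMg-LFD mouse, at 108.49 FPKM, stood above the highest NormMg-HFD mouse, at 80.77 FPKM. Vegfb measured 99.32, 90.9, 80.09 and 85.42 FPKM in the NormMg-LFD mice and fell by 0.94 (SE 0.13, adjusted p = 1.46e-05). Hif1a measured 17.91, 18.75, 26.69 and 19.51 FPKM in the NormMg-LFD mice and rose by 0.70 ± 0.14 (SE, adjusted p = 0.000507). Vegfa, Vegfb and Hif1a were the 3 genes of the 10 whose groups did not overlap, against 32.1% of all genes tested. Without NormMg-LFD replicate 3 the differences were -1.04 for Vegfa (adjusted p = 0.00156), -0.92 for Vegfb (adjusted p = 0.000104) and 0.66 for Hif1a (adjusted p = 0.00285).

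Kdr measured 30.94, 25.4, 36.17 and 28.78 FPKM in the NormMg-LFD mice and fell by 0.41 on the log2 scale in NormMg-HFD mice (SE 0.15, adjusted p = 0.035 by limma). NormMg-HFD replicate 2, at 32.0 FPKM, lay inside the NormMg-LFD range and the other NormMg-HFD mice lay below it. This call was lost when single mice were left out. The adjusted p was 0.0748, 0.115 and 0.0523 without NormMg-LFD replicates 2, 4 and 5, and 0.0965, 0.0966 and 0.0548 without NormMg-HFD replicates 1, 3 and 5. It was 0.0249 without NormMg-LFD replicate 3, the difference then being -0.48. With no filter on low values it was 0.0744, and it was 0.0738 when the NormMg groups were fitted alone. Flt1 differed by -0.29 (adjusted p = 0.0589 by limma), and passed after median centring (-0.39, adjusted p = 0.0167), after quantile normalization (-0.37, adjusted p = 0.0182), without LowMg-LFD replicate 2 (adjusted p = 0.0395) and without NormMg-HFD replicate 2 (-0.36, adjusted p = 0.0187). Tek (-0.19), Tie1 (-0.17) and Vwf (-0.26) differed by less, with adjusted p of 0.202, 0.231 and 0.351 by limma. Pecam1 (0.14, adjusted p = 0.28) and Cdh5 (-0.02, adjusted p = 0.909) did not pass either. Tie1 passed after quantile normalization alone (-0.29, adjusted p = 0.0428). Without NormMg-LFD replicate 3 the differences were -0.25 for Flt1 (adjusted p = 0.153), -0.17 for Tek, -0.17 for Tie1, -0.38 for Vwf (adjusted p = 0.211), 0.12 for Pecam1 and 0.0081 for Cdh5, and none of these passed.

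Fat on low Mg2+ gave a different member past the threshold. Cdh5 measured 66.7, 68.26, 61.6, 59.55 and 73.94 FPKM in the LowMg-LFD mice and 85.36, 78.89, 81.66, 74.42 and 84.18 FPKM in the LowMg-HFD mice. The groups did not overlap, which held for 1 of the 10 genes and for 9.3% of all genes tested. Cdh5 rose by 0.29 ± 0.085 on the log2 scale (SE, adjusted p = 0.0257 by limma), the 1 gene of the 10 called in either direction, while 15.9% of all genes tested were called and 12.4% rose. Over all genes 1036 of the 1329 calls were rises, which became 593 of 1124 after median centring and 549 of 1079 after quantile normalization. The calls over all genes numbered 834 without LowMg-LFD replicate 1, 866 and 800 without LowMg-HFD replicates 1 and 2, and 725 when the 2 LowMg groups were fitted alone. The Cdh5 difference was 0.18 (adjusted p = 0.192) after median centring, 0.22 (adjusted p = 0.121) after quantile normalization, and its adjusted p was 0.0506 when the 2 LowMg groups were fitted alone. Its adjusted p was 0.0543 and 0.059 without LowMg-LFD replicates 3 and 4, and 0.0667 and 0.0531 without LowMg-HFD replicates 1 and 5.

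The remaining genes did not pass between fat levels on low Mg2+. Vegfb measured 75.03, 94.38, 91.85, 77.77 and 92.49 FPKM in the LowMg-LFD mice, and its difference was -0.30 (adjusted p = 0.0967 by limma). It passed without LowMg-HFD replicate 3, the highest of its group (-0.40, adjusted p = 0.0205), and after median centring (-0.41, adjusted p = 0.0497). Vegfa differed by -0.32 (adjusted p = 0.307), and by -0.16 (adjusted p = 0.63) without LowMg-HFD replicate 4. Kdr differed by 0.21 (adjusted p = 0.34), Hif1a by 0.25 (adjusted p = 0.211) and Pecam1 by 0.22 (adjusted p = 0.125).

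Whether the response to fat differed between Mg2+ levels was read from the interaction term, that is, the difference between Mg2+ levels on the HFD less the same difference on the LFD. No gene of the 10 passed. Limma called 1.25% of all genes tested, or 104 genes. With 1 mouse left out at a time this count ranged from 0, for example without NormMg-LFD replicate 2, to 482, without LowMg-HFD replicate 2. The lowest adjusted p was that of Vegfb (0.63 ± 0.18 SE, adjusted p = 0.0624), followed by Kdr (0.61, adjusted p = 0.0953), Vegfa (0.88, adjusted p = 0.103), Cdh5 (0.31, adjusted p = 0.17) and Hif1a (-0.45, adjusted p = 0.185). These 5 had an unadjusted p under 0.05, and the 95% intervals ran from 0.26 to 1.00 for Vegfb and from 0.26 to 1.49 for Vegfa. Leaving out NormMg-HFD replicate 5 (0.70, adjusted p = 0.0381) or LowMg-HFD replicate 2 (0.70, adjusted p = 0.0312), or quantile normalization (0.69, adjusted p = 0.0431), brought Vegfb past the threshold, and leaving out NormMg-HFD replicate 2 brought Kdr past it (0.74, adjusted p = 0.048). Without NormMg-LFD replicate 3 the interaction was 0.62 for Vegfb (adjusted p = 0.113), 0.69 for Kdr (adjusted p = 0.108) and 0.72 for Vegfa (adjusted p = 0.209), and 0 of all genes tested were called. The differences on the HFD and on the LFD were therefore not shown to be unequal for any of the 10 genes by the fit of all 19 mice.

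**Figure D3:**
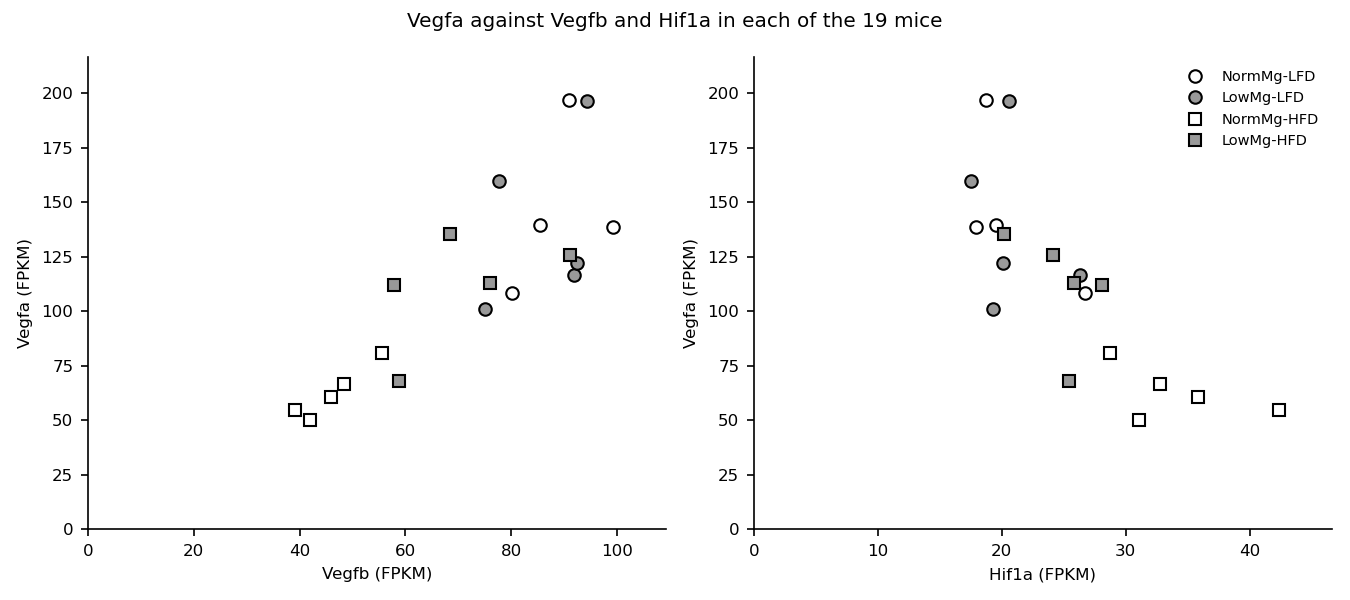
Vegfa in FPKM (vertical axes) against Vegfb (left) and Hif1a (right) in FPKM, 1 point per mouse, with the diet groups marked by shape and fill. The NormMg-HFD mice, white squares, lie at the low end of both VEGF genes and at the high end of Hif1a, and LowMg-HFD replicate 4, with 67.76 FPKM of Vegfa, lies among them for Vegfa but not for Hif1a (25.45 FPKM).

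Within a mouse, the balance of related genes was read as a ratio of FPKM. The ratio of Vegfa to Vegfb had medians of 1.52 in NormMg-LFD, 1.35 in LowMg-LFD, 1.37 in NormMg-HFD and 1.49 in LowMg-HFD mice. The ratio of the receptors Flt1 and Kdr had medians of 0.641, 0.637, 0.694 and 0.589 in the same order. The ratio of Tek to Tie1 had medians of 0.595, 0.574, 0.578 and 0.587. None of the 12 comparisons of these ratios passed exact two-sided permutation tests adjusted over the 12. With groups this small, a single ratio could not have passed after this adjustment, even with its groups fully apart. The tests therefore do not show that the balance of these genes was unchanged. The lowest p was that of Flt1 to Kdr between the HFD groups, with a log2 difference of -0.27 (exact permutation p = 0.0556, adjusted p = 0.603). For Vegfa to Vegfb the log2 ratio was lower by 0.26 in NormMg-HFD than in NormMg-LFD mice (difference -0.26, exact permutation p = 0.143, adjusted p = 0.603), and without NormMg-LFD replicate 3 the difference was -0.12.

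Genes that vary together from mouse to mouse were described by their deviations from the diet group mean in log2(FPKM + 1), over the 19 mice, which share libraries. The closest pair of the 10 genes was Pecam1 and Cdh5 (Pearson r 0.78, Spearman rho 0.78), followed by Flt1 and Tek (0.74 and 0.63) and Pecam1 and Tie1 (0.74 and 0.75). Vegfa and Vegfb gave 0.55 and 0.52. Vegfa and Hif1a gave the most negative pair (-0.46 and -0.41), while Kdr and Flt1 gave 0.22 and 0.09. Of all genes tested, Tjp1, which encodes the tight junction protein ZO-1, was most like the mean of Pecam1, Cdh5, Kdr, Tek, Tie1 and Vwf (r 0.89, rho 0.85), ahead of Atn1 (0.85 and 0.76), Chp2 (0.84 and 0.81), Gbp9 (0.83 and 0.75) and Repin1 (0.81 and 0.84). These are the ends of a ranking of 8336 genes and are given as a description. Tjp1 averaged 18.3 FPKM in NormMg-HFD and 25.5 FPKM in LowMg-HFD mice, a log2 difference of 0.49 (adjusted p = 0.0301 by limma).

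A list of 20 further endothelial genes was read beside the 10. Of the 18 tested, 8 rose and 1 fell between the Mg2+ levels on the HFD, where 5.58% of all genes tested rose and 12.9% fell, and their median difference was 0.27 against -0.04 for all genes. Robo4, a receptor that stabilises vessels (0.48, adjusted p = 0.00347 by limma), Gpihbp1, which carries lipoprotein lipase to the capillary surface (0.52, adjusted p = 0.0053), Ptprb, the endothelial phosphatase that acts on TEK (0.54, adjusted p = 0.0062), and Mmrn2, a matrix protein of vessels (0.45, adjusted p = 0.00726), had the lowest adjusted p. The gene that fell was Cd93 (-0.45, adjusted p = 0.0302), which monocytes also express. The summed level of the 20 genes was 627.9 to 725.53 FPKM in the NormMg-HFD mice and 744.9 to 838.34 FPKM in the LowMg-HFD mice. These groups did not overlap, which held for 12.8% of the single genes tested. The sum was 700.61 to 751.32 FPKM in NormMg-LFD and 619.5 to 761.92 FPKM in LowMg-LFD mice. It follows the most abundant genes, such as Gpihbp1, with means of 98.2 FPKM in NormMg-HFD and 140.9 FPKM in LowMg-HFD mice. Egfl7 had means of 85.1 and 113.6 FPKM in the same order. Of the 18 genes tested, 15 had a difference above 0 between the Mg2+ levels on the HFD.

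With fat on normal Mg2+, 1 of the 18 rose and 5 fell, against 24.6% and 12.8% of all genes tested, the list median being -0.10 against 0.07 for all genes. Cd93 rose (1.07, adjusted p = 1.58e-05 by limma) and Egfl7, an endothelial secreted factor, fell (-0.45, adjusted p = 0.00295), as did Ptprb (-0.45, adjusted p = 0.0108) and Mmrn2 (-0.34, adjusted p = 0.024). Without NormMg-LFD replicate 3 these 4 kept their calls (adjusted p = 0.000128, 0.00473, 0.0352 and 0.045 in the order given), and the list count was 1 rise and 3 falls, Robo4 (adjusted p = 0.108) and Gpihbp1 (adjusted p = 0.167) no longer passing. With fat on low Mg2+, 3 of the 18 rose and none fell, a share near the 12.4% of all genes that rose, and the list median was 0.16 against 0.10 for all genes. These were Cd93 (0.66, adjusted p = 0.00403 by limma), Icam2, an adhesion molecule (0.44, adjusted p = 0.0227), and Robo4 (0.30, adjusted p = 0.0403). Robo4 was also the 1 gene of the list called for the interaction (0.60, adjusted p = 0.0464), and its adjusted p was 0.0963 without NormMg-LFD replicate 3. For Mg2+ on the LFD none of the 18 was called.

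The list of other ligands held 13 genes in the table, of which 8 were tested. Some of them passed the filter on low values through the HFD groups alone, so that their higher level there is a condition of their being tested and their values are given without a count. Dll4, the Notch ligand of sprouting tip cells, passed through the LowMg-HFD group alone, with medians of 9.34 FPKM in NormMg-LFD, 7.28 in LowMg-LFD, 7.7 in NormMg-HFD and 11.1 in LowMg-HFD mice. Apln, the ligand of the apelin receptor, also passed through that group alone, with medians of 4.94, 3.4, 6.32 and 9 FPKM in the same order, and Adm, which encodes adrenomedullin, through both HFD groups. Between Mg2+ levels on the HFD the chemokine Cxcl12 fell (-0.59, adjusted p = 0.0224 by limma). Compared between fat levels on normal Mg2+, Angptl4, an inhibitor of lipoprotein lipase (1.60, adjusted p = 0.000293), Cxcl12 (0.66, adjusted p = 0.00776) and Pdgfb, which recruits pericytes (0.42, adjusted p = 0.0279), rose. The growth factor Fgf2, which passed the filter in every group but NormMg-HFD, fell with fat on normal Mg2+ (-1.22, adjusted p = 1.33e-05) and on low Mg2+ (-0.51, adjusted p = 0.0315). Without NormMg-LFD replicate 3 the calls of Angptl4, Cxcl12 and Fgf2 on normal Mg2+ held and that of Pdgfb was lost (adjusted p = 0.085). Of the 11 further receptors tested, none was called between the Mg2+ levels on the HFD, where limma called 5.58% of all genes higher and 12.9% lower. Nrp2, a coreceptor of VEGF family members (0.93, adjusted p = 2.5e-05), and Aplnr (0.54, adjusted p = 0.0328) rose and Notch1 (-0.50, adjusted p = 0.0185) fell between fat levels on normal Mg2+, the call of Aplnr being lost without NormMg-LFD replicate 3 (adjusted p = 0.103). Nrp2 (0.65, adjusted p = 0.00257), Aplnr (0.72, adjusted p = 0.0117) and Acvrl1, a receptor of the BMP9 pathway (0.40, adjusted p = 0.0391), rose between fat levels on low Mg2+.

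Of the 5 partners and regulators of HIF-1α tested, none was called between Mg2+ levels on the HFD, where 5.58% of all genes rose and 12.9% fell. Epas1, which encodes HIF-2α, fell between fat levels on normal Mg2+ (-0.24, adjusted p = 0.0495 by limma, and 0.127 without NormMg-LFD replicate 3). Vhl, the ligase subunit that marks HIF proteins for degradation, rose between fat levels on low Mg2+ (0.79, adjusted p = 0.023 by limma). Genes known as HIF targets were read as a list, of which 9 were tested. Between Mg2+ levels on the HFD 2 rose and 2 fell, against 5.58% and 12.9% of all genes, and the list median was -0.11 against -0.04 for all genes. Ndrg1 (0.70, adjusted p = 0.00916 by limma) and the hexokinase Hk2 (0.49, adjusted p = 0.0366) rose, and the glycolytic enzyme Pgk1 (-0.33, adjusted p = 0.0229) and the collagen cross-linking enzyme Lox (-0.55, adjusted p = 0.0425) fell. Fat on normal Mg2+ gave 4 rises and 4 falls among the targets, against 24.6% and 12.8% of all genes, with a list median of 0.16 against 0.07, and without NormMg-LFD replicate 3 it gave 3 rises and 2 falls. Lox (1.23, adjusted p = 5.59e-05) and Pgk1 (0.43, adjusted p = 0.00277) rose, and Hk2 (-0.87, adjusted p = 0.000404) and Ndrg1 (-0.94, adjusted p = 0.000537) fell, and these 4 held without that mouse. On low Mg2+ Lox rose with fat (0.70, adjusted p = 0.0137) and the kinase Pdk1 fell (-0.70, adjusted p = 0.0171).

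**Figure D4:**
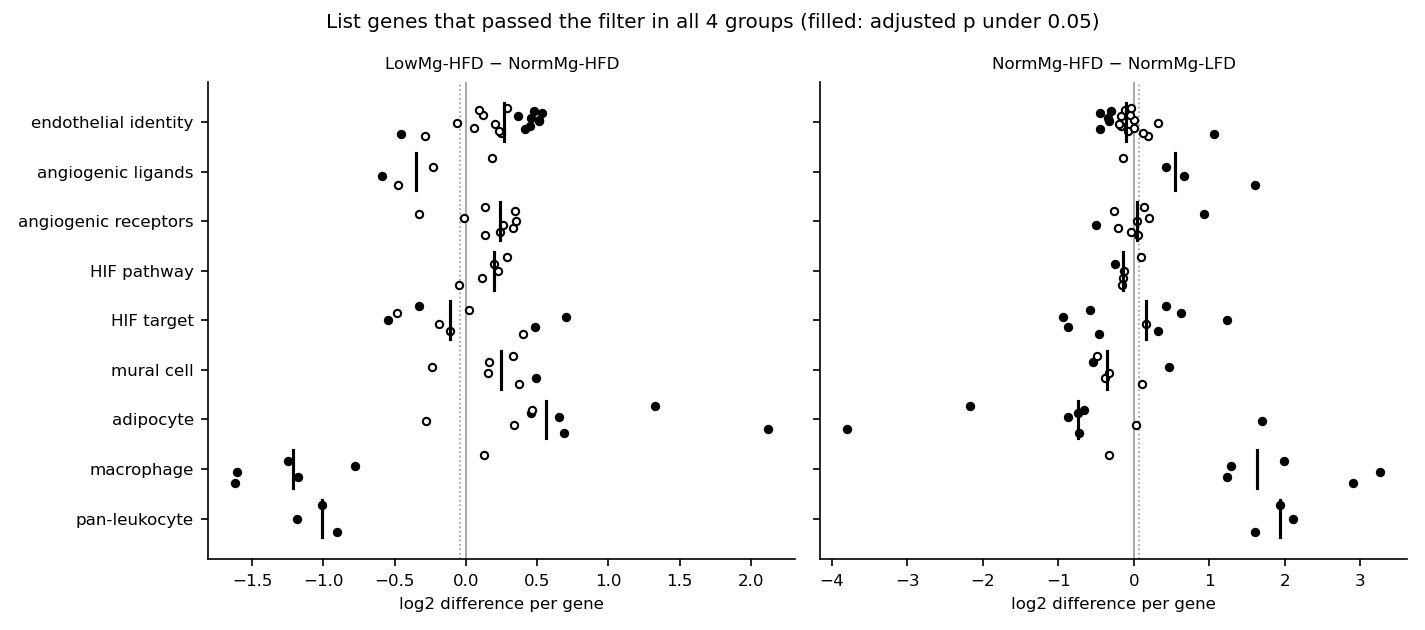
Difference in log2(FPKM + 1) of each gene (points) of 9 lists that passed the filter in all 4 groups, between Mg2+ levels on the HFD (left) and between fat levels on normal Mg2+ (right). Filled points passed an adjusted p of 0.05 by limma, the vertical bar is the list's median, and the dotted line is the median of all genes tested. The endothelial genes have a median of 0.27 on the left and -0.10 on the right, and the macrophage genes -1.21 and 1.63.

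Markers of other cell types of the fat pad were read in the same comparisons. Of the 8 macrophage markers 6 passed the filter in all 4 groups, and of these 5 fell between Mg2+ levels on the HFD, where 12.9% of all genes tested fell, and 5 rose between fat levels on normal Mg2+, where 24.6% rose. The other 2 were admitted by groups in which they are high, Fcgr1 by NormMg-HFD alone and Itgax by both HFD groups, and are not counted. The summed level of all 8 was 122.16 to 155.97 FPKM in NormMg-LFD, 91.11 to 186.25 FPKM in LowMg-LFD, 517.61 to 874.48 FPKM in NormMg-HFD and 161.82 to 489.45 FPKM in LowMg-HFD mice, and none was at 0 in a group. All 4 leukocyte markers fell between Mg2+ levels on the HFD and rose between fat levels on normal Mg2+, Cd53 having passed the filter in every group but NormMg-LFD. Of the 8 adipocyte markers 5 rose between Mg2+ levels on the HFD, where 5.58% of all genes rose. With fat on normal Mg2+ 6 fell, where 12.8% of all genes fell, and 1 rose, Lep (1.69, adjusted p = 0.00019 by limma), which encodes leptin. With fat on low Mg2+, 4 of the 6 macrophage markers that passed in all 4 groups rose, 2 of the 3 such leukocyte markers rose, and of the adipocyte markers 1 rose and 2 fell, where 12.4% of all genes rose and 15.9% were called in either direction. In that comparison Vegfa, Vegfb, Kdr and Hif1a did not pass the threshold. The summed level of the adipocyte markers was 4988.26 to 7670.51 FPKM in NormMg-HFD and 8168.22 to 11910.7 FPKM in LowMg-HFD mice, against 11909.7 to 15668.7 FPKM in NormMg-LFD mice. In group medians NormMg-HFD mice were lowest in both VEGF genes and in the summed adipocyte level. They were highest in Hif1a and in the summed macrophage level, although single markers such as Lep and Mertk did not follow the sums. Cfd made up much of the difference in the adipocyte sum, with medians of 5438.73 FPKM in NormMg-LFD and 378.25 FPKM in NormMg-HFD mice. The adipocyte sum is therefore no measure of the adipocyte share of the tissue. Vegfa, Vegfb and Hif1a are expressed by many cell types. The part of these cells in the differences of the 10 genes was not tested.

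The 10 mural cell markers, of pericytes and smooth muscle, were all tested. Between Mg2+ levels on the HFD Mcam, an adhesion molecule that endothelial cells share, rose (0.49, adjusted p = 0.0235 by limma). The pericyte proteoglycan Cspg4, with a log2 difference of -0.61 there, passed the filter through the NormMg-HFD group alone, where its median was 10.7 FPKM against 7.28 FPKM in LowMg-HFD mice. Between fat levels on normal Mg2+ Rgs5 fell (-0.54, adjusted p = 0.00873, and 0.03 without NormMg-LFD replicate 3) and the receptor Pdgfrb rose (0.47, adjusted p = 0.0305, and 0.0776 without that mouse). Myh11 (-1.02) passed the filter through the NormMg-LFD group alone. Between fat levels on low Mg2+ the smooth muscle actin gene Acta2 rose (0.99, adjusted p = 0.0135). Of 5 lymphatic markers 2 were tested and none was called in these comparisons. Of 6 stromal progenitor markers, among which Dpp4 passed the filter through the NormMg-LFD group alone, 2 fell between the Mg2+ levels on the HFD, where 12.9% of all genes fell. These were Lum (-1.40, adjusted p = 0.000661) and Col1a1 (-1.22, adjusted p = 0.00178), and both rose with fat on normal Mg2+ (2.04 and 1.48) and on low Mg2+ (0.63 and 0.74). Of 5 platelet markers 1 was tested, Pf4, which macrophages also express and which fell between Mg2+ levels on the HFD (-0.70, adjusted p = 0.0106) and rose with fat on normal Mg2+ (0.63, adjusted p = 0.0122, and 0.0426 without NormMg-LFD replicate 3). Of 6 mesothelial markers 1 was tested, Krt19, which passed the filter through the NormMg-LFD group alone, with medians of 13.5 FPKM there and 2.78 FPKM in NormMg-HFD mice. Of the 10 exocrine pancreas genes 1 was tested, Cela1, which was not called over the 19 mice and was higher with fat on normal Mg2+ (1.26, adjusted p = 0.000595) without NormMg-LFD replicate 3.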

How the data were processed

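The authors sequenced 50-base single-end reads of eWAT and, per the labels, used HISAT, Bowtie2 and RSEM v1.2.31 on GRCm38/mm10. The deposited values are FPKM per gene and mouse, and the authors deposited the read number and the percent of reads mapped of each library beside them. Since FPKM are not counts, no count test was run. The table holds 24238 genes. A gene with a letter in place of a value (1 gene) was dropped, and symbols converted to dates (26) were restored by gene identifier.

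Values were taken as log2(FPKM + 1). The filter asked that a diet group reach a mean FPKM above 8 with at least 4 of its mice above 8 as well. Over the 8336 genes left, the 4 groups were fitted together with limma 3.58.1 (trend, R 4.3.3). P values are two-sided and Benjamini-Hochberg adjusted over these genes. Ratios were compared by exact permutation tests in scipy 1.17.1 (Python 3.11.15). Labels give a mouse's diet and number only, so p values measure the spread between these mice. The same numbers recur in each group. Over 27 pairs with the same number the correlation of deviations from the group means ran from -0.18 to 0.34, with a median of 0.0032. Over 108 pairs with different numbers it ran from -0.27 to 0.20, with a median of -0.0018. The medians were alike, and the numbers were not taken as pairs. The highest correlation was nonetheless between mice with the same number.

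The members and lists were chosen with earlier results of these data known. Named genes are the 10 members, up to 4 called genes per list and comparison by lowest adjusted p, and the 5 genes nearest to the endothelial mean. Fcgr1, Dpp4, Mertk and Cela1 fall outside this rule and were chosen after their values were seen, and some genes named for one comparison are also given in another. The alternatives were another pseudocount (0.1), a lower filter (FPKM 1), no filter, median centring, quantile normalization, the compared groups alone, a replicate block and each mouse left out. The fit was tested on simulated data. Gene positions come from GENCODE and promoter sequences from RefSeq (GRCm38.p6), in which 7 of the 10 members matched by symbol. Figures were drawn with matplotlib 3.10.9.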

Additional observations from a re-analysis of the deposited data

Results flagged for a closer look

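The summed level of the 10 exocrine pancreas genes was 1586.84 FPKM in NormMg-LFD replicate 3, a mouse far from the other 3 of its group, which held 16.18, 17.43 and 22.26 FPKM. This was the only value so placed among 108 groups of values examined over the 10 genes, the 3 ratios and the marker lists, of which chance alone would place about 1 in 20 (Dixon's criterion). In this mouse Vegfa was the highest of all 19 mice, at 196.87 FPKM, Kdr was the lowest of its group, at 25.4 FPKM, and Hif1a measured 18.75 FPKM.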

How the results depend on the processing

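Of the 62 results over genes and ratios, 9 passed the threshold. None of the 9 turned direction under any alternative tried, and 3 lost the threshold in some: Hif1a between Mg2+ levels on the HFD, Kdr between fat levels on normal Mg2+ and Cdh5 between fat levels on low Mg2+. Vegfa, Vegfb and Kdr between Mg2+ levels on the HFD, and Vegfa, Vegfb and Hif1a between fat levels on normal Mg2+, kept it under all 26 alternatives. FPKM carry no read number per gene, so what depth limits cannot be given for a single value. Where a result changed, the cause was not tested.

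The interaction called 104 of all genes tested, and 24 with a pseudocount of 0.1, 48 with a filter of FPKM 1, 2 with no filter, 245 after median centring, 347 after quantile normalization and 0 with the replicate block. With the replicate block the genes called between Mg2+ levels on the HFD were 1466 in place of 1542 and the members called between fat levels on normal Mg2+ were 3 in place of 4, Kdr being lost (adjusted p = 0.0572 by limma). The replicate numbers are only shared numbers. No filter gave 1 gene called for Mg2+ on the LFD. With only the groups compared, 725 of all genes were called between fat levels on low Mg2+ in place of 1329, and 0 members, as after quantile normalization (0 members). Quantile normalization gave 1 member called for the interaction, Vegfb.

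Median centring turned the direction of 4 uncalled log2 differences: Tek (0.014) and Vegfb (0.020) for Mg2+ on the LFD, and Tek (-0.025) and Vwf (-0.025) for fat on low Mg2+. Quantile normalization turned 3: Tek (0.027) for Mg2+ on the LFD, and Tek (-0.035) and Vwf (-0.026) for fat on low Mg2+.

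Leaving out each mouse in turn gave 921 (without NormMg-HFD replicate 3) to 1644 genes called between Mg2+ levels on the HFD, 800 (without LowMg-HFD replicate 2) to 1468 between fat levels on low Mg2+ and 0 to 482 for the interaction. Members called ranged from 0 to 2 between fat levels on low Mg2+ and from 0 to 1 for the interaction. For Mg2+ on the LFD the log2 differences ranged from -0.021 to 0.098 for Pecam1, -0.15 to 0.017 for Kdr, -0.050 to 0.085 for Flt1, -0.31 to 0.046 for Vwf, -0.21 to 0.076 for Vegfa, -0.093 to 0.0092 for Vegfb and -0.078 to 0.13 for Hif1a. They ranged from -0.068 to 0.031 for Cdh5 with fat on normal Mg2+, from -0.096 to 0.040 for Flt1 with fat on low Mg2+ and from -0.0029 to 0.12 for Pecam1 in the interaction. For Mg2+ on the LFD the log2 ratio of Flt1 to Kdr ranged from -0.0084 to 0.21, that of Vegfa to Vegfb from -0.13 to 0.11 and that of Tek to Tie1 from -0.036 to 0.096. The ratio of Tek to Tie1 ranged from -0.069 to 0.018 with fat on normal Mg2+, -0.10 to 0.033 with fat on low Mg2+ and -0.028 to 0.067 for Mg2+ on the HFD. The ratio of Vegfa to Vegfb with fat on low Mg2+ ranged from -0.10 to 0.089. All of these were uncalled.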
